A study of Homo sapiens with 4 samples.

Results

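The 33 genes described here encode the machinery that copies DNA in S phase: the MCM helicase, factors that license and fire origins, the GINS complex, the sliding clamp and its loader, polymerase and primase subunits, enzymes of the lagging strand, enzymes that supply deoxynucleotides, chromatin assembly factors, a checkpoint mediator and E2F transcription factors. They were taken by symbol from a list of 33 names, out of 26364 symbols in the count tables, and all 33 were found and tested. Messenger RNA was counted in NCI-H460, an established line of human non-small cell lung cancer, in 4 libraries. Cells were given 0 or 4 Gy of gamma radiation and were afterwards kept for 48 h in 2 uM 3-deazaneplanocin A (DZNep), an inhibitor of S-adenosylhomocysteine hydrolase, or in the solvent DMSO. Each of the 4 combinations, called DMSO 0 Gy, DMSO 4 Gy, DZNep 0 Gy and (both treatments) DZNep 4 Gy, is 1 library. No group has a replicate, and nothing in the labels says whether the libraries came from separate cultures.

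In a cycling cell, MCM2 to MCM7 are loaded onto origins as a ring in G1 phase by CDC6 and CDT1, and CDC45 and GINS turn that ring into an active helicase when S phase begins. PCNA, loaded by RFC, then holds the polymerases on DNA. Most of these genes are transcribed under E2F factors, which are held back by the retinoblastoma family while CDKN1A inhibits the cyclin-dependent kinases, and DNA damage induces CDKN1A through p53. In RNA from a whole culture, fewer cells in S phase and less RNA per cell cannot be told apart.

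Libraries held 112461380 to 136594350 counts. CPM below are counts scaled to library size, with TMM factors, a normalization that assumes most genes do not differ between libraries and gives 1 factor per library. CDKN1A stood at 201 and 251 CPM at 0 Gy and at 1296 and 1307 CPM at 4 Gy, in DMSO and DZNep. Of the epithelial markers, KRT8 was at 709 CPM or more in every library, while EPCAM and CDH1 were at 0.491 and 0.343 CPM or less and the lung lineage gene NKX2-1 at 0.132 CPM or less. Of the markers of blood and endothelium, PTPRC, CD3E, PECAM1 and VWF were at 0.379 CPM or less in every library, and CD68 was at 60.1 to 88.2 CPM. Of the fibroblast markers, COL1A2 and DCN were at 0.554 CPM or less and PDGFRB at 4.10 to 10.5 CPM.

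Promoter sequence is shown because E2F sites are a known feature of this gene class. RefSeq promoters (GRCh38.p14) matched 30 of the 33 genes, and MCM4, MCM5 and GINS4 had no entry. The 250 bases before each start were searched on both strands for the E2F consensus, written out as TTTCCCGC, TTTCGCGC, TTTGCCGC and TTTGGCGC. At least 1 match was present in 12 of the 30 genes (40%), against 5.68% of 9737 tested genes with a promoter and 3.40% of all 27305 symbols with one. A CCAAT box was present in 18 of 30 (60%), against 41.7% of the tested genes. The CHR element, TTTGAA or TTCGAA, was present in 2 of 30 (6.67%), against 13.9% of the tested genes. An E2F match was present in 30% of the 10 genes that passed the radiation test described below and in 45% of the 20 that did not. Among the 12 genes with an E2F match, 3 passed that test and 9 did not. Those 3 are printed around the match nearest to the start, 5′ to 3′ along the gene, with the E2F matches on either strand in capitals.

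GINS2 promoter, chr16:85688955-85689025, minus strand: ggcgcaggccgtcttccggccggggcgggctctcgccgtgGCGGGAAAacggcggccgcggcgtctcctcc
MCM6 promoter, chr2:135876482-135876569, minus strand: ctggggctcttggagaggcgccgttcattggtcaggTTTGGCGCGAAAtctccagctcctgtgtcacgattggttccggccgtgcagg
E2F1 promoter, chr20:33686386-33686445, minus strand: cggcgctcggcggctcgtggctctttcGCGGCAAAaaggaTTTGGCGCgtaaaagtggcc

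In MCM6 the capitals are 2 overlapping matches, TTTGGCGC and, read on the other strand, TTTCGCGC, 79 to 90 bases before the start, and the same pair recurs 141 to 152 bases before it. The E2F1 promoter holds 2 matches within 33 bases of its own start, and GINS2 holds 1 match, 24 to 31 bases before its start. A match of letters is a description and not a measured binding site. Of the genes that fell most, RRM2, CLSPN and POLE2 had no match in this window.

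Of the 33 replication genes, 30 were lower after radiation in both drug arms. Drug and dose were fitted as additive terms over the 4 libraries, and edgeR's quasi-likelihood p-values were adjusted (Benjamini-Hochberg) over all 13378 tested genes. By that test 12 of the 33 fell and 0 rose at an adjusted p of 0.05. In the same test 0.897% of all tested genes fell and 2.17% rose. The median log2 fold change was -0.64 over the 33 genes and 0.0069 over all tested genes. In CPM, both 4 Gy libraries lay below both 0 Gy libraries for 27 of the 33, against 18.4% of all genes at 10 CPM or more. Together the 33 genes took 0.272% of the counts in DMSO 0 Gy, 0.213% in DZNep 0 Gy and 0.1495% and 0.1504% in DMSO 4 Gy and DZNep 4 Gy.

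That model has 1 residual degree of freedom, and a gene whose radiation ratio differs between the drug arms gets a larger error in it. Its calls moved with the filter on low counts and with the terms fitted: 6 of the 33 fell with no filter, 20 of 31 fell with a 10 CPM filter, and 0 fell (16 at an unadjusted p under 0.05) when drug was left out of the model. Values in parentheses below are its log2 fold changes of 4 Gy over 0 Gy across both arms, with SE and adjusted p.

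**Figure D1:**
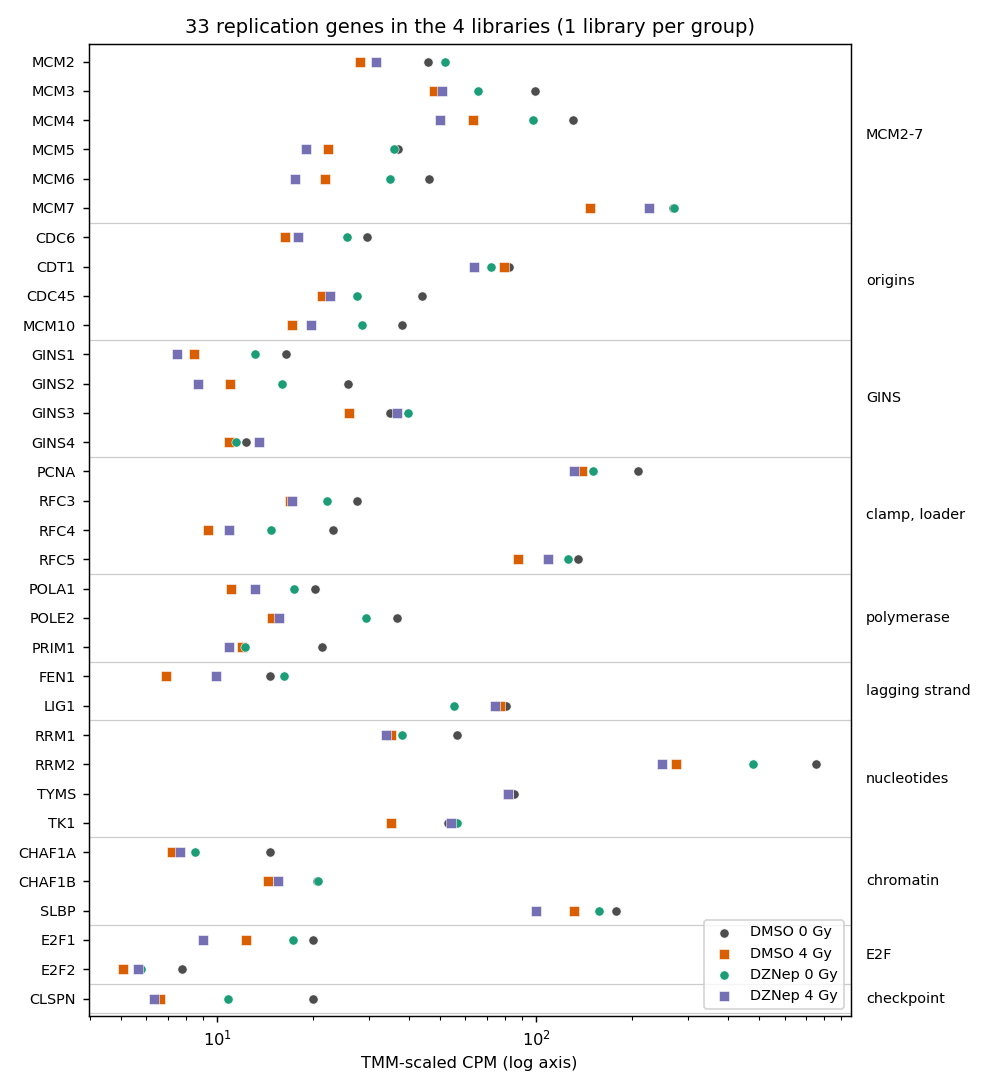
TMM-scaled CPM of each of the 33 genes (log axis) in the 4 libraries, 1 point per library, grouped by role. For 27 of the 33 genes both squares (4 Gy) lie to the left of both circles (0 Gy). DMSO 0 Gy is the highest library for 26, and the share of all genes with that pattern was not counted.

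The 6 subunits of the MCM ring, the motor that unwinds DNA ahead of the fork, were lower at 4 Gy in both arms. MCM6 stood at 46.1 CPM in DMSO 0 Gy, 21.8 in DMSO 4 Gy, 34.9 in DZNep 0 Gy and 17.6 in DZNep 4 Gy. MCM4 stood at 130.2 CPM in DMSO 0 Gy, 63.2 in DMSO 4 Gy, 98.04 in DZNep 0 Gy and 49.99 in DZNep 4 Gy. Both genes had their radiation fall at nearly the same size in each arm, with log2 ratios (4 Gy over 0 Gy, 1 library each) of -1.08 in DMSO and -0.99 in DZNep for MCM6 and of -1.04 and -0.97 for MCM4. In the test over both arms, MCM6 fell (-1.03, SE 0.17, adjusted p = 0.0067), as did MCM4 (-1.01, SE 0.15, adjusted p = 0.00531), MCM5 (-0.82, SE 0.17, adjusted p = 0.0232) and MCM2 (-0.72, SE 0.16, adjusted p = 0.0349). MCM5 stood at 36.9 CPM in DMSO 0 Gy, 22.2 in DMSO 4 Gy, 35.8 in DZNep 0 Gy and 19.01 in DZNep 4 Gy, and MCM2 at 45.8 CPM in DMSO 0 Gy, 28.02 in DMSO 4 Gy, 51.9 in DZNep 0 Gy and 31.4 in DZNep 4 Gy, so in both genes the 2 doses did not overlap.

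MCM3 and MCM7 did not pass. MCM3 stood at 98.9 CPM in DMSO 0 Gy, 47.8 in DMSO 4 Gy, 65.7 in DZNep 0 Gy and 50.7 in DZNep 4 Gy, with DMSO 0 Gy well above the others. MCM7 stood at 268 CPM in DMSO 0 Gy, 147 in DMSO 4 Gy, 269 in DZNep 0 Gy and 226 in DZNep 4 Gy. Its lowest library was DMSO 4 Gy, and the ratio of its 4 Gy to its 0 Gy library was -0.86 in DMSO and -0.25 in DZNep. The test gave MCM3 an estimate of -0.71, SE 0.18, adjusted p = 0.0527, and MCM7 one of -0.56, SE 0.17, adjusted p = 0.0848. The 6 ratios spanned -1.08 to -0.71 in DMSO and -0.99 to -0.25 in DZNep.

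Although the ring holds 1 copy of each subunit, the 6 mRNAs stood at unlike levels per length. Per kilobase of exon in GENCODE 29, MCM7 was at 73.4 CPM in DMSO 0 Gy, MCM3 at 30.8, MCM4 at 29.97, MCM2 at 12.6, MCM6 at 12.3 and MCM5 at 10.5. The highest exceeded the lowest 7.02-fold there, 6.90-fold in DMSO 4 Gy, 7.90-fold in DZNep 0 Gy and 13.2-fold in DZNep 4 Gy. MCM7 was the highest in all 4 libraries, and MCM6 the lowest in all but DMSO 0 Gy, where MCM5 was. MCM7 shares 7.58% of its exonic bases with AP4M1 on the opposite strand, and MCM2 shares 30.7% with an antisense RNA. The use of strand in counting is not given in the sources used here, so reads of such partners cannot be told apart.

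**Figure D2:**
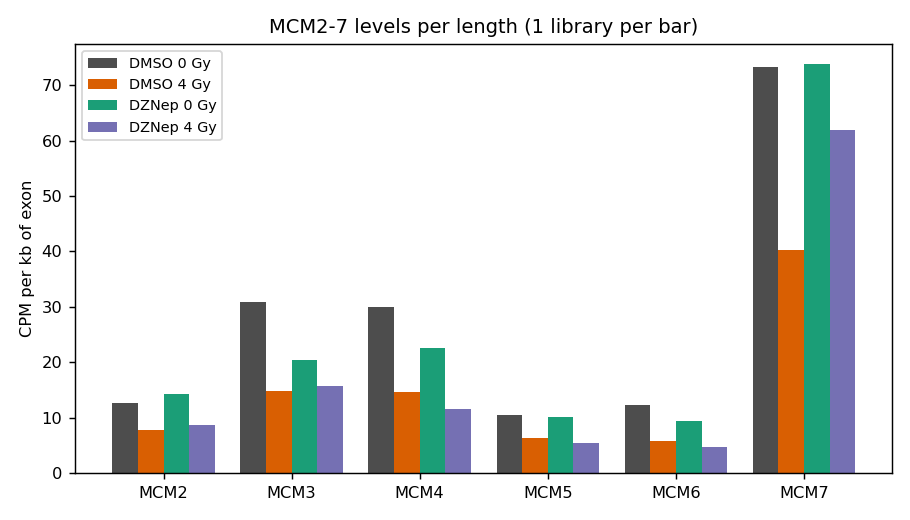
TMM-scaled CPM per kilobase of exon for the 6 MCM ring subunits, 1 bar per library and no error bar since each group has 1 library. MCM7 is highest in every library, at 73.4 in DMSO 0 Gy against 10.5 for MCM5.

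Of the genes that license and fire origins, MCM10, which helps to activate the loaded helicase, fell (-0.84, SE 0.19, adjusted p = 0.0359). It stood at 37.97 CPM in DMSO 0 Gy, 17.1 in DMSO 4 Gy, 28.3 in DZNep 0 Gy and 19.7 in DZNep 4 Gy, both 4 Gy libraries below both 0 Gy libraries. CDC6, an ATPase that helps to load the ring, gave -0.68, SE 0.18, adjusted p = 0.0543, and CDC45, a helicase cofactor, gave -0.66, SE 0.20, adjusted p = 0.0858, so neither passed. CDC45 stood at 43.8 CPM in DMSO 0 Gy, 21.3 in DMSO 4 Gy, 27.4 in DZNep 0 Gy and 22.6 in DZNep 4 Gy. Its DMSO 0 Gy library stood apart, and its ratio was -1.04 in DMSO against -0.28 in DZNep. CDT1, the partner of CDC6 in loading, stood at 82.3 CPM in DMSO 0 Gy, 79.2 in DMSO 4 Gy, 72.3 in DZNep 0 Gy and 63.7 in DZNep 4 Gy. It did not pass (-0.12, SE 0.15, adjusted p = 0.704), and its DMSO ratio of -0.057 was the smallest in size of the 33.

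The GINS complex, which joins CDC45 and the MCM ring, was split. GINS2 stood at 25.7 CPM in DMSO 0 Gy, 10.96 in DMSO 4 Gy, 15.9 in DZNep 0 Gy and 8.69 in DZNep 4 Gy and fell (-1.05, SE 0.19, adjusted p = 0.0124). GINS1 stood at 16.5 CPM in DMSO 0 Gy, 8.43 in DMSO 4 Gy, 13.1 in DZNep 0 Gy and 7.47 in DZNep 4 Gy and fell as well (-0.89, SE 0.19, adjusted p = 0.0284). GINS3 (-0.27, SE 0.17) and GINS4 (0.028, SE 0.19) did not pass. GINS4 stood at 12.3 CPM in DMSO 0 Gy, 10.9 in DMSO 4 Gy, 11.5 in DZNep 0 Gy and 13.5 in DZNep 4 Gy, with its highest library among the irradiated ones. All 4 proteins sit in 1 complex, yet the DMSO ratios ran from -1.23 for GINS2 to -0.18 for GINS4, and the DZNep ratios from -0.87 to 0.24. GINS4 shares 21.2% of its exonic bases, and GINS3 16.5%, with an antisense RNA.

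None of the clamp and loader genes passed, and all 4 were lower at 4 Gy in both arms. PCNA, the sliding clamp, stood at 208 CPM in DMSO 0 Gy, 139 in DMSO 4 Gy, 151 in DZNep 0 Gy and 131 in DZNep 4 Gy. RFC4, a loader subunit, stood at 23.1 CPM in DMSO 0 Gy, 9.39 in DMSO 4 Gy, 14.8 in DZNep 0 Gy and 10.9 in DZNep 4 Gy, a ratio of -1.30 in DMSO and -0.44 in DZNep, and its estimate missed the threshold (-0.87, SE 0.22, adjusted p = 0.0517). Those of RFC3 (-0.53, SE 0.18, adjusted p = 0.109), RFC5 (-0.42, SE 0.16, adjusted p = 0.161) and PCNA (-0.39, SE 0.16, adjusted p = 0.176) were smaller. Their DMSO ratios were -0.70, -0.63 and -0.58, and their DZNep ratios -0.37, -0.21 and -0.20. PCNA is also a p53 target. Because 3 PCNA pseudogenes are annotated, its count is less certain.

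POLE2, a subunit of the leading strand polymerase, stood at 36.6 CPM in DMSO 0 Gy, 14.9 in DMSO 4 Gy, 29.2 in DZNep 0 Gy and 15.6 in DZNep 4 Gy and fell (-1.10, SE 0.18, adjusted p = 0.0073). Its 4 Gy libraries were close to each other and far below both 0 Gy libraries. The catalytic polymerase subunit gene POLA1 (-0.64, SE 0.19, adjusted p = 0.0826) and the primase subunit gene PRIM1 (-0.50, SE 0.20, adjusted p = 0.184) did not pass. PRIM1 stood at 21.3 CPM in DMSO 0 Gy, 11.98 in DMSO 4 Gy, 12.3 in DZNep 0 Gy and 10.9 in DZNep 4 Gy, with DMSO 0 Gy alone above the others, and shares 25.99% of its exonic bases with another annotated gene. On the lagging strand, FEN1, the flap nuclease, stood at 14.6 CPM in DMSO 0 Gy, 6.92 in DMSO 4 Gy, 16.2 in DZNep 0 Gy and 9.90 in DZNep 4 Gy and fell (-0.89, SE 0.19, adjusted p = 0.0305). LIG1, the ligase that seals Okazaki fragments, did the opposite in direction without passing (0.18, SE 0.17, adjusted p = 0.584). It stood at 80.2 CPM in DMSO 0 Gy, 76.8 in DMSO 4 Gy, 55.2 in DZNep 0 Gy and 74.1 in DZNep 4 Gy, where DZNep 0 Gy was the low library.

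Nucleotide supply held both the largest fall and a gene that hardly differed. RRM2, the regulated small subunit of ribonucleotide reductase, had the highest count of the 33, at 754 CPM in DMSO 0 Gy, 273 in DMSO 4 Gy, 478 in DZNep 0 Gy and 247 in DZNep 4 Gy. It fell (-1.21, SE 0.16, adjusted p = 0.00177) and the 2 doses did not overlap. RRM1, the large subunit of the same enzyme, stood at 56.5 CPM in DMSO 0 Gy, 35.04 in DMSO 4 Gy, 37.9 in DZNep 0 Gy and 33.8 in DZNep 4 Gy and did not pass (-0.43, SE 0.18, adjusted p = 0.192). TK1, thymidine kinase, stood at 53.04 CPM in DMSO 0 Gy, 35.03 in DMSO 4 Gy, 56.5 in DZNep 0 Gy and 53.9 in DZNep 4 Gy, with DMSO 4 Gy alone below the rest (-0.33, SE 0.17, adjusted p = 0.301). TYMS, thymidylate synthase, lay between 81.3 and 85.1 CPM in all 4 libraries (-0.031, SE 0.15, adjusted p = 0.93). TYMS shares 58.2% of its exonic bases with ENOSF1 on the opposite strand, so its count may mix both. RRM2 has 3 annotated pseudogenes and shares 27.9% of its exonic bases with another annotated gene.

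E2F1, itself a regulator of many of these genes, stood at 20.01 CPM in DMSO 0 Gy, 12.3 in DMSO 4 Gy, 17.2 in DZNep 0 Gy and 9.002 in DZNep 4 Gy and fell (-0.82, SE 0.18, adjusted p = 0.0354). E2F2 was the only one of the 33 under 10 CPM in every library, at 7.75 CPM in DMSO 0 Gy, 5.07 in DMSO 4 Gy, 5.76 in DZNep 0 Gy and 5.64 in DZNep 4 Gy (-0.32, SE 0.24, adjusted p = 0.485). CLSPN, the mediator that carries the signal from ATR to the kinase CHEK1 at stalled forks, stood at 19.996 CPM in DMSO 0 Gy, 6.63 in DMSO 4 Gy, 10.8 in DZNep 0 Gy and 6.34 in DZNep 4 Gy. It fell (-1.18, SE 0.22, adjusted p = 0.017), and its DMSO ratio of -1.59 was the lowest of the 33. The 3 chromatin genes did not pass: SLBP, which binds histone mRNA (-0.55, SE 0.15, adjusted p = 0.0649), and the chromatin assembly subunits CHAF1A (-0.59, SE 0.23, adjusted p = 0.168) and CHAF1B (-0.46, SE 0.17, adjusted p = 0.153). CHAF1A stood at 14.6 CPM in DMSO 0 Gy, 7.23 in DMSO 4 Gy, 8.53 in DZNep 0 Gy and 7.63 in DZNep 4 Gy, so its DMSO 0 Gy library alone stood apart.

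**Figure D3:**
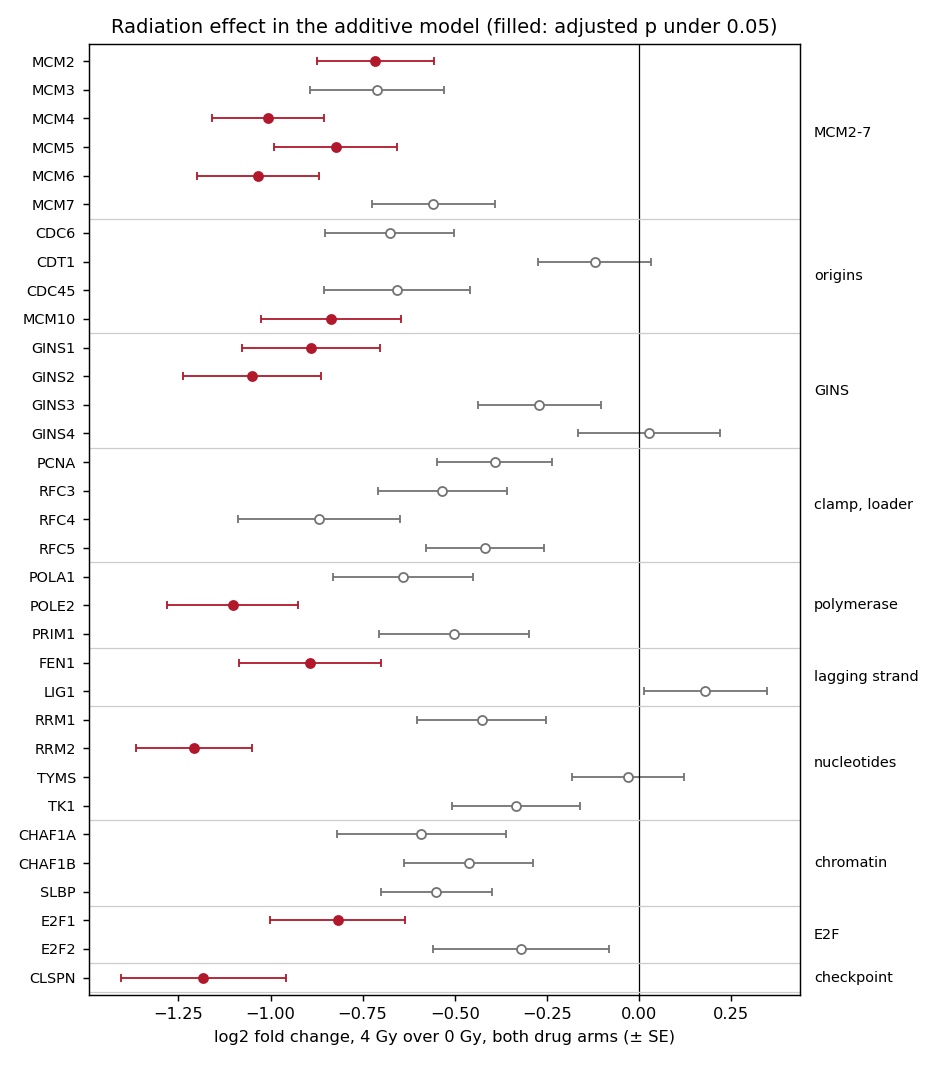
Radiation log2 fold change of each of the 33 genes over both drug arms, with its standard error, from edgeR's additive model. The 12 filled points passed at an adjusted p of 0.05 and all lie below 0; RRM2 is lowest and LIG1 highest.

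Radiation ratios were further below 0 in DMSO than in DZNep for most of these genes. In DMSO all 33 ratios were below 0, against 52.5% of genes at 10 CPM or more, with a median of -0.83 against -0.026. In DZNep 30 of 33 were below 0, against 46.6% of genes, with a median of -0.41 against 0.026. Below 0 in both arms were 30 of 33, against 33.9% of genes. At least 2-fold lower in DMSO were 12, against 0.988% of genes: MCM3, MCM4, MCM6, CDC45, MCM10, GINS2, RFC4, POLE2, FEN1, RRM2, CHAF1A and CLSPN. In DZNep 0 were, against 0.2% of genes, and MCM6 (-0.99) and MCM4 (-0.97) came nearest. None was at least 2-fold higher in either arm, against 2.06% and 0.852% of genes. Of the 32 at 10 CPM or more in DMSO, 24 were at least 1.5-fold lower, against 7.36% of genes, and E2F2, under 10 CPM, was too (-0.61). In DZNep 12 of the 31 at 10 CPM or more were at least 1.5-fold lower, against 4.03% of genes. Counting error alone gives these ratios 95% half-widths of 0.018 to 0.15, and the spread between cultures is unknown.

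The difference between the ratios, DZNep minus DMSO, has no error estimate, so whether the drug changed the response was not tested. It was above 0 for 28 of the 33, against 51.9% of genes at 10 CPM or more. Its median was 0.39, and over those genes the median was 0.017 with an SD of 0.41. The highest were those of RFC4 (0.86), CHAF1A (0.86), CLSPN (0.82) and CDC45 (0.76). The 5 below 0 were those of E2F1 (-0.24), SLBP (-0.22), MCM5 (-0.18), CDT1 (-0.13) and MCM2 (-0.014). By role, the median was 0.080 for the MCM ring, 0.33 for GINS, 0.40 for clamp and loader, 0.46 for polymerase and primase, 0.48 for the origin genes and 0.52 for nucleotide supply. The MCM ring thus had the smallest value of these roles, 4 of its 6 genes lying between -0.18 and 0.089, and MCM3 (0.68) and MCM7 (0.61) well above. The arms share no library, and across the 33 genes their ratios correlated at r = 0.67 (rho = 0.67), against r = 0.55 over 7577 genes. Genes are not independent replicates, and the points share 4 libraries.

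**Figure D4:**
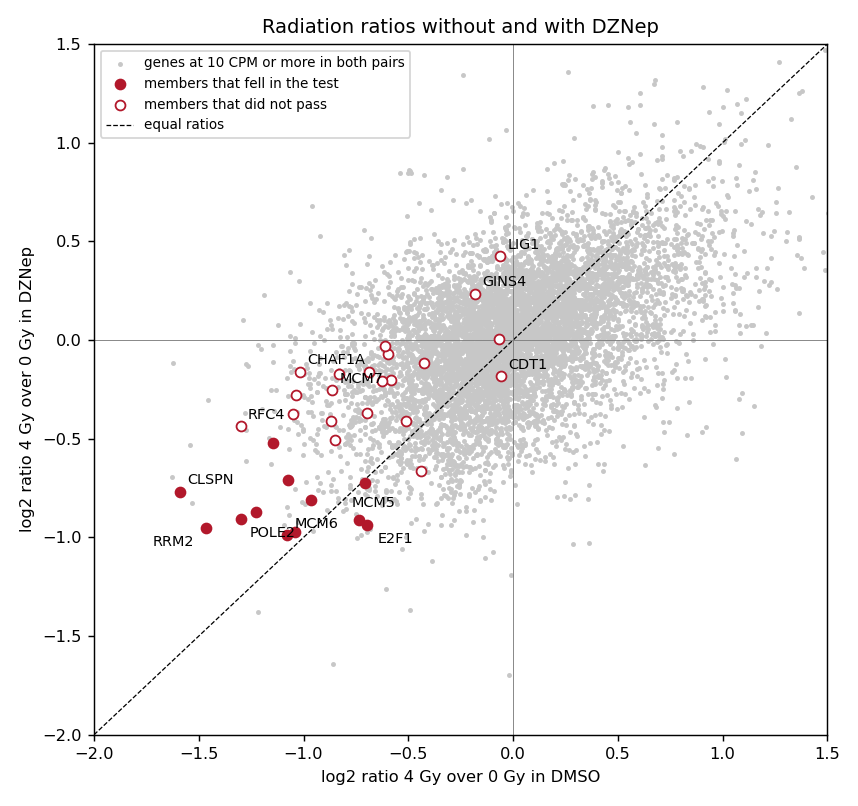
Log2 ratio of 4 Gy over 0 Gy in DMSO (x) and in DZNep (y) for 7577 genes (grey, 31 of them beyond the axes) and the 33 replication genes (red; filled where the test over both arms passed). The 28 points above the dashed line had a ratio nearer to 0, or higher, in DZNep than in DMSO.

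DZNep against DMSO gave no call among the 33. In the same model, now with log2 fold changes of DZNep over DMSO, 0 fell and 0 rose (6 had an unadjusted p under 0.05, and DESeq2 also called 0), where 12.3% of all tested genes fell and 10.8% rose. The lowest adjusted p values were those of GINS2 (-0.51, SE 0.19, adjusted p = 0.0633), RRM2 (-0.40, SE 0.15, adjusted p = 0.0785) and MCM4 (-0.37, SE 0.15, adjusted p = 0.0951). The highest estimates were those of TK1 (0.36, SE 0.17), GINS3 (0.35, SE 0.17), FEN1 (0.33, SE 0.19) and MCM7 (0.31, SE 0.17). The median was -0.22, against -0.015 over all tested genes. Under a 10 CPM filter GINS2 and RRM2 passed as falls, and under plain library size scaling GINS2 did.

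The DZNep ratios at the 2 doses share no library. Across the 33 genes they correlated at r = 0.44 (rho = 0.42), against r = 0.78 over 7847 genes. The 33 genes spread less, with SDs of 0.30 at 0 Gy and 0.29 at 4 Gy, against 0.60 and 0.58 over genes at 10 CPM or more. A narrower spread can by itself lower r, so the 2 values of r are not on a like footing. At 0 Gy, 27 of 33 were below 0, against 52% of genes, with a median of -0.33 against -0.021. The lowest were CLSPN (-0.89), PRIM1 (-0.80), CHAF1A (-0.78), GINS2 (-0.69) and CDC45 (-0.68), and the highest GINS3 (0.19), MCM2 (0.18) and FEN1 (0.15). At 4 Gy, 19 of 33 were above 0, against 51.4% of genes, with a median of 0.066 against 0.017. There TK1 (0.62), MCM7 (0.62), FEN1 (0.52) and GINS3 (0.50) were highest, and E2F1 (-0.45), SLBP (-0.40), MCM4 (-0.34) and GINS2 (-0.33) lowest. For 13 genes the ratio was below 0 at 0 Gy and above 0 at 4 Gy, against 13.9% of genes at 10 CPM or more at both doses. No gene had the reverse. For each gene, the DZNep ratio at 4 Gy minus that at 0 Gy equals the difference between the radiation ratios given above. It is the same value and not a separate observation. At neither dose was any of the 33 at least 2-fold apart, where 3.61% of genes were lower and 3.61% higher at 0 Gy and 3.92% and 3.19% at 4 Gy. At 1.5-fold, 8 of the 32 at 10 CPM or more were lower at 0 Gy, against 12.5% of genes. At 4 Gy 2 of the 28 at 10 CPM or more, TK1 and MCM7, were higher, against 11% of genes.

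DMSO 0 Gy was the highest of the 4 libraries for 26 of the 33 genes. It enters the DMSO radiation ratio and the DZNep ratio at 0 Gy, so those values move with 1 library, and its part in the difference between the arms was not tested. The lowest library was DMSO 4 Gy for 18 genes and DZNep 4 Gy for 13. The shares of all genes with these highest and lowest libraries were not counted, so whether these counts are unusual is not known.

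**Figure D5:**
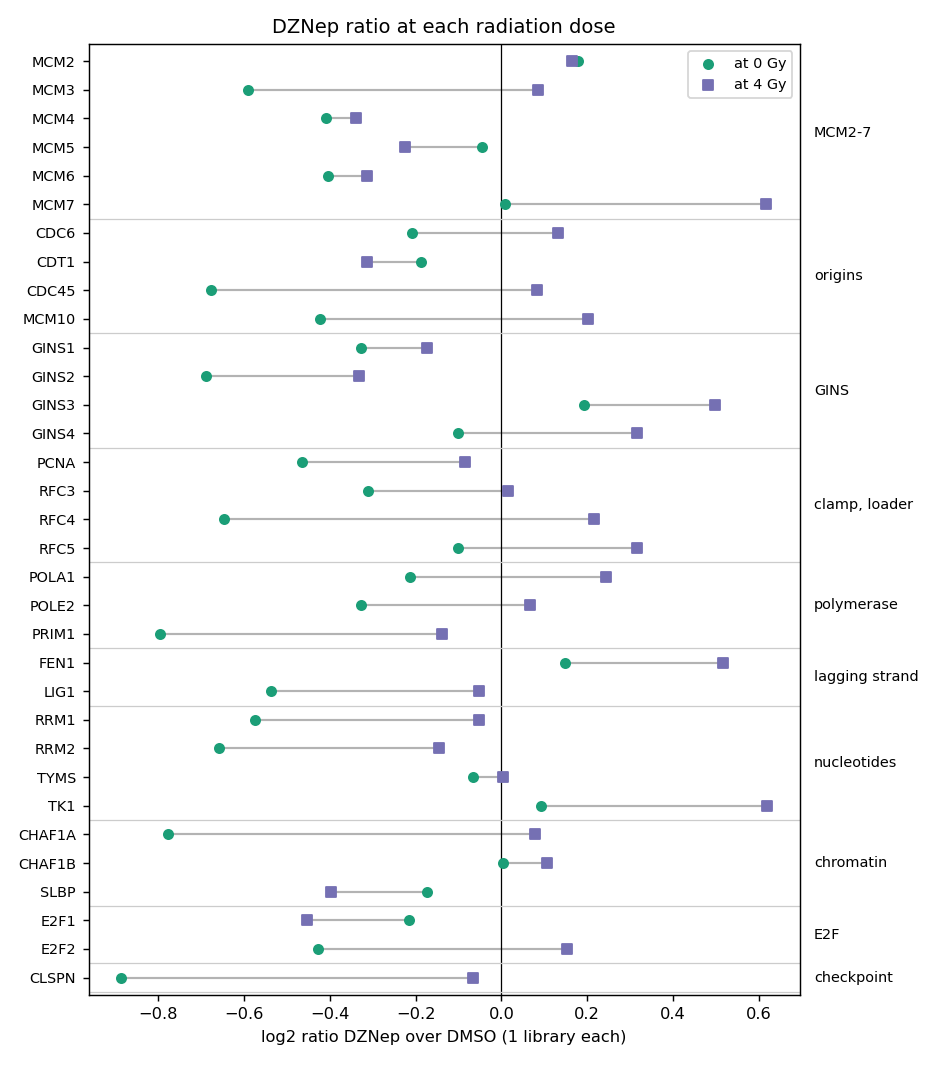
Log2 ratio of DZNep over DMSO for each of the 33 genes at 0 Gy (circles) and 4 Gy (squares), 1 library per group. At 0 Gy 27 circles lie below 0, at 4 Gy 19 squares lie above it, and for 28 genes the square lies to the right of the circle.

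Set against untreated cells, cells with both treatments kept 31.8% of the CLSPN level, 32.8% of RRM2, 33.9% of GINS2, 38.1% of MCM6 and 38.4% of MCM4. Radiation alone left 33.2% of CLSPN, 36.3% of RRM2, 42.7% of GINS2, 47.4% of MCM6 and 48.6% of MCM4, so CLSPN and RRM2 were nearly as low without the drug. Near their untreated level under both treatments were TYMS (95.8%), TK1 (102%), GINS3 (105%), GINS4 (109.8%) and LIG1 (92.4%). These percentages come from 1 library each and have no replicate check.

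A list of 68 other replication and E2F pathway genes, none of them among the 33, was tested in the same way. After radiation 7 fell and 1 rose, against 0.897% and 2.17% of all tested genes. Lowest was the cyclin gene CCNE2 (-1.61, SE 0.36, adjusted p = 0.0337), which stood at 2.59 CPM in DMSO 0 Gy, 1.09 in DMSO 4 Gy, 1.47 in DZNep 0 Gy and 0.360 in DZNep 4 Gy. MCM8 of the MCM family (-1.02, SE 0.17, adjusted p = 0.00754), the flap nuclease and helicase gene DNA2 (-0.97, SE 0.18, adjusted p = 0.0161), the CDT1 inhibitor GMNN (-0.90, SE 0.18, adjusted p = 0.0211), the dUTPase gene DUT (-0.85, SE 0.15, adjusted p = 0.011) and the MCM binding protein gene MCMBP (-0.65, SE 0.15, adjusted p = 0.037) also fell. The polymerase delta subunit gene POLD4 rose (0.71, SE 0.16, adjusted p = 0.0359), from 126 to 241 CPM in DMSO and from 127 to 177 in DZNep. The median of the 68 was -0.37.

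With DZNep, 12 of the 68 fell and 2 rose, against 12.3% and 10.8% of all tested genes. E2F5 fell most (-1.50, SE 0.19, adjusted p = 0.000196), from 16.5 and 15.6 CPM in DMSO to 5.45 and 5.92 in DZNep at 0 and 4 Gy. Then came the histone chaperone gene ASF1B (-1.20, SE 0.22, adjusted p = 0.00191), CCNE2 (-1.18, SE 0.35), the retinoblastoma gene RB1 (-0.94, SE 0.20, adjusted p = 0.00515), the histone acetyltransferase gene HAT1 (-0.79, SE 0.17), the fork protection gene TIMELESS (-0.71, SE 0.23), MCM8 (-0.67, SE 0.16) and WDHD1 (-0.61, SE 0.20), a fork adaptor. WDHD1 passed narrowly (adjusted p = 0.0466). These estimates pool both doses, and the 2-library ratios at 0 and 4 Gy were often unlike. They were -1.66 and -0.75 for ASF1B, -1.21 and -0.21 for TIMELESS and -0.95 and -0.27 for WDHD1. The fall was larger at 4 Gy for RB1 (-0.63 and -1.24), CCNE2 (-0.81 and -1.56) and HAT1 (-0.69 and -0.88). ASF1A, the paralog of ASF1B, rose (0.75, SE 0.19, adjusted p = 0.0135), as did the ribonuclease H subunit gene RNASEH2C (0.55, SE 0.18).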

How the data were processed

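Messenger RNA libraries (Lexogen SENSE kit, per the labels' protocols) were made from NCI-H460 cells, 1 per group, 4 in all. The authors deposited unnormalized counts by gene symbol. TopHat, hg19 and edgeR are named, per the submitters' processing notes. Versions, annotation and strand use were not given in the sources used here. Even values made up 55.9% to 58.1% of counts from 1 to 59, so mates may be counted separately and intervals, which cover counting error only, are then too narrow.

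Counts were scaled by TMM in edgeR 4.0.16 (R 4.3.3), with factors of 0.979 to 1.01. The 13378 of 26364 symbols that reached 1 CPM in 2 or more libraries were tested for radiation and for DZNep with edgeR's quasi-likelihood test, drug and dose being additive terms. Its p-values (Benjamini-Hochberg over all tested genes, threshold 0.05) rest on departure from additivity of drug and dose, pooled in part over genes. They hold no spread between replicates. The fit had 1 residual and 11.5 prior degrees of freedom, and its common coefficient of biological variation was 0.163. An SE is the absolute log2 fold change over the root of F. Ratios of 2 libraries used a prior count of 2, with exact conditional binomial 95% intervals and no test. Scripts were tested on simulated data.

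Promoters came from RefSeq (GRCh38.p14) and exon lengths from GENCODE 29, by symbol only. The 33 genes and the lists were chosen with earlier results of these data known. All 33 are named, and of the 68 others those past the threshold, at most 8 per direction and effect; 1 of these is not reported here. Alternatives were RLE factors, plain library size, no filter or a 10 CPM filter, DESeq2 1.42.0, models with 1 factor, halved counts, a prior count of 0.5 and a 1.5-fold threshold.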

Additional observations from a re-analysis of the deposited data

Results flagged for a closer look

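In 9 genes, 2 ratios lay on opposite sides of 0, either radiation in the 2 drug arms or DZNep at the 2 doses. Each ratio had a counting interval that leaves out 0. That of CDC45 for DZNep at 4 Gy did so barely (0.0023 to 0.16), and the intervals are too narrow if mates were counted separately. The share of all genes that meets this rule was not counted, and these intervals are narrow at this depth. With 1 library per group none of these differences was tested.

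For radiation (4 Gy over 0 Gy) this held for 2 genes. The log2 ratio of GINS4, a GINS subunit, was -0.18 in DMSO and 0.24 in DZNep, a difference of 0.42. That of LIG1, the Okazaki fragment ligase, was -0.062 in DMSO and 0.42 in DZNep, a difference of 0.49.

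For DZNep over DMSO it held for 7 genes, each below 0 at 0 Gy and above 0 at 4 Gy. Among the helicase and origin genes these were MCM3 (-0.59 and 0.085, a difference of 0.68), CDC6 (-0.21 and 0.13, a difference of 0.34), CDC45 (-0.68 and 0.083, a difference of 0.76) and MCM10 (-0.42 and 0.20, a difference of 0.62). Of the clamp loader genes these were RFC4 (-0.65 and 0.22, a difference of 0.86) and RFC5 (-0.10 and 0.32, a difference of 0.42), and of the polymerase genes POLA1 (-0.21 and 0.24, a difference of 0.46). All 7 were lower at 4 Gy in both drug arms, so the rule that picked them makes DMSO 0 Gy their highest library. The part of that library in these differences was not tested.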

How the results depend on the processing

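No paired analysis was possible because each group has 1 library, and leaving out a library leaves no residual degrees of freedom. The 12 falls among the 33 genes after radiation became 6 with no filter, 20 with a 10 CPM filter and 0 with dose alone in the model (16 at an unadjusted p under 0.05). They became 15 with RLE factors, 16 with plain library size, 16 with DESeq2 and 12 with halved counts, and under these 4 settings and the 10 CPM filter all 12 were kept. Over all genes, 120 falls and 290 rises became 65 and 134 with no filter, 441 and 590 with the 10 CPM filter, 214 and 447 with DESeq2, and 0 and 0 with dose alone. Plain library size gave 266 falls, and the share of rises among calls was 70.7% with TMM, 56.9% with plain library size and 57.2% with the 10 CPM filter. Of the 68 other genes, 7 falls and 1 rise became 4 and 0 with no filter, 18 and 2 with the 10 CPM filter, 0 and 0 with dose alone, and 13 falls with plain library size.

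For DZNep the 0 falls among the 33 became 1 with plain library size and 2 with the 10 CPM filter. Over all genes, 1640 falls and 1446 rises became 366 and 355 with drug alone in the model. Of the 68, 12 falls and 2 rises became 6 and 1 with no filter, and 2 and 0 with drug alone. At 1.5-fold in place of 2-fold, and leaving out genes under 10 CPM in both libraries compared, radiation gave 24 lower genes in DMSO and 12 in DZNep, and DZNep gave 8 lower genes at 0 Gy and 2 higher genes at 4 Gy. Plain library size gave 2 genes at least 2-fold lower after radiation in DZNep. Signs were compared only for the 33 genes and for those of the 68 past the threshold for either effect. Among these, the signs of 3 estimates near 0 reversed: DZNep on POLA1 (-0.035 with drug alone, -0.0045 with plain library size), radiation on E2F5 (-0.026 with dose alone, -0.013 with plain library size) and radiation on GINS4 (-0.0049 with plain library size). All medians of ratios over the 33 kept their direction under RLE factors, plain library size, the lower prior count and a minimum of 10 CPM. The causes of these changes were not tested.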
